A study of Mus musculus with 12 samples.

Results

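The immunity-related GTPases (IRGs) are a family of interferon-inducible GTP-binding proteins. The genes described here are Irgm1, Irgm2, Igtp, Iigp1, Ifi47 and Gm4951, chosen by name as all probe sets whose annotation gives exactly 1 of these symbols. They make up 7 of the 45101 probe sets of the array and 6 of its 18194 singly annotated genes, and Iigp1 is the one member with 2 probe sets. All 7 probe sets passed the filter on low signals. RNA from the left lung of individual male mice of 6 to 8 weeks was measured on Affymetrix mouse genome arrays, with 3 mice in each of 4 groups: Nfkb1KO-O3, Nfkb1KO-Air, WT-O3 and WT-Air. The Nfkb1KO mice carried the Nfkb1tm1Bal deletion, which removes the p105 precursor of NF-κB and the p50 subunit cut from it, on a mixed background. The WT mice were B6129PF2/J hybrids bought as a separate line, so loss of Nfkb1 and other strain differences cannot be told apart in any genotype comparison. The O3 groups breathed 0.3 ppm of O3 for 48 h and the Air groups filtered air. The level of Nfkb1 itself was not analysed here, and the genotype of each array rests on its label alone.

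IRG proteins are made at high level when interferon-gamma binds its receptor, and in mice they defend cells against parasites and bacteria that live inside vacuoles. Irgm1, Irgm2 and Igtp (also Irgm3) belong to the GMS class, named for an unusual residue in the nucleotide-binding loop, and act as regulators that sit on the cell's own membranes and hold the other class inactive there. Iigp1 (also Irga6) and Ifi47 (also Irgd) belong to the GKS class of effectors, of which Iigp1 is known to coat and break the vacuole of Toxoplasma gondii. Gm4951 is annotated with the synonym Ifgga2. Closely related IRG genes could share signal on an array, and probe sequences were not used here to test this.

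The promoters of interferon-inducible genes commonly carry an interferon-stimulated response element (ISRE), bound by IRF factors and by ISGF3, or a gamma-activated site (GAS), a short element of interferon-gamma responses. No promoter of Iigp1 or Gm4951 was part of the motif search. RefSeq promoter windows on GRCm38.p6 spanned 250 bases before and 50 after the annotated start. Such windows were used for 4 of the 6 members, Irgm1, Irgm2, Igtp and Ifi47, whose genes lie on chromosome 11. They were searched on both strands for the ISRE core GAAANNGAAA and for the GAS TTCNNNGAA. The stretches that hold the matches are shown because they place both elements side by side in 2 of the regulators whose levels are described below. Capitals mark the matched bases.
Igtp, plus strand, chr11:58199497-58199545: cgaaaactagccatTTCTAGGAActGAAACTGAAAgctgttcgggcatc
Irgm2, plus strand, chr11:58214888-58214936: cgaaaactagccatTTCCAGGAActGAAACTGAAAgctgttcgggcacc
Irgm1, minus strand, chr11:48871421-48871464: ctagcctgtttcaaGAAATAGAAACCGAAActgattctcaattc
In Igtp the GAS lay at bases -45 to -37 from the start and the ISRE core at -34 to -25, and in Irgm2 the same pair lay at -75 to -67 and -64 to -55. The Igtp and Irgm2 windows aligned with 91.1% identity over 271 columns, against 57.0% for Igtp with Irgm1 and 53.3% for Igtp with Ifi47. Irgm1 held 2 ISRE cores that overlap, at -30 to -21 and -24 to -15, and no GAS by these letters. The Ifi47 window held neither pattern. Of all 32851 mouse promoter windows of this length, 3.44% held the ISRE core, 8.3% the GAS and 0.454% both. The κB consensus, searched by its degenerate form and present in 4.51% of all windows, had no match in the 4 IRG windows. A match describes the sequence and is not evidence of a bound factor.

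**Figure D1:**
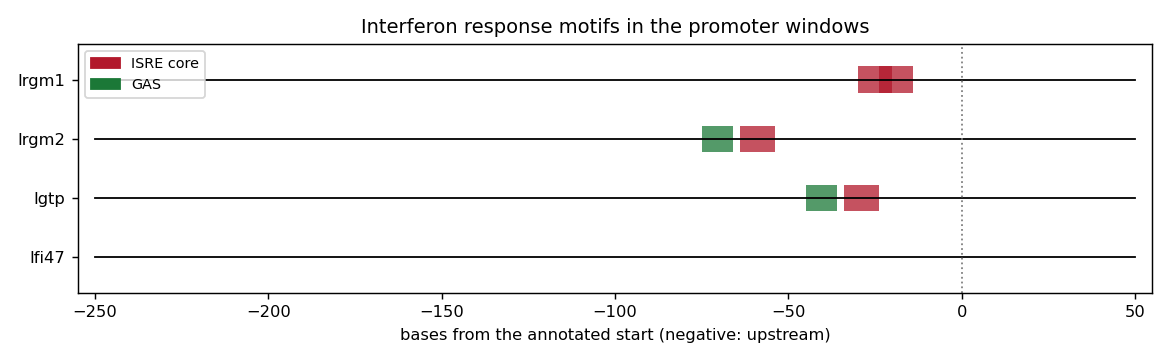
Positions of ISRE core matches (red) and GAS matches (green) in the promoter windows of Irgm1, Irgm2, Igtp and Ifi47, with distance from the annotated start in bases on the x axis and upstream negative. Irgm2 and Igtp show a GAS followed by an ISRE core, Irgm1 shows 2 overlapping ISRE cores, and Ifi47 shows no match.

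Some features of the arrays bear on all values below. Nfkb1KO-Air replicate 1 stood apart, with a median signal of 180.1, against 99.14 to 121.2 on the other arrays, and rank correlations of 0.916 to 0.930 with them, against 0.947 to 0.969 among the others. Muscle transcripts varied between lung pieces. The log2 of the summed skeletal muscle markers came to 15.17 in WT-Air replicate 3, 13.15 in Nfkb1KO-O3 replicate 2 and 12.53 in WT-Air replicate 1, against 9.11 to 11.06 in the other arrays, and the cardiac markers ranged over all arrays between 13.01 and 16.71. The tissue label was checked with 9 alveolar epithelial markers, whose summed signal had a log2 of 16.94 to 17.22 in all 12 arrays. Spiked control RNA moved with exposure. Poly-A controls averaged a log2 signal of 9.20 ± 0.26 on the O3 arrays, against 9.63 ± 0.26 on the Air arrays, while hybridisation controls averaged 11.43 ± 0.05 after O3, against 11.66 ± 0.10 in air (SD, n = 6 each). The part of this shift in the O3 comparisons was not tested.

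All 6 IRG genes had their highest levels in Nfkb1KO-O3 lungs and their second highest in Nfkb1KO-Air lungs, with the WT groups below. Levels are given as log2 signal after quantile normalisation, in the order of replicates 1, 2 and 3.

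Among the GMS regulators, Igtp measured 13.59, 13.40 and 12.51 in Nfkb1KO-O3 lungs, 11.68, 11.37 and 11.23 in Nfkb1KO-Air lungs, 9.74, 9.89 and 9.88 in WT-O3 lungs and 10.25, 10.45 and 10.35 in WT-Air lungs. The 4 groups did not overlap, and WT-O3 was the lowest. On the linear scale Igtp averaged 9970 ± 3443 signal units in Nfkb1KO-O3 lungs and 920.2 ± 49.0 in WT-O3 lungs, and 2648 ± 272 in Nfkb1KO-Air lungs and 1307 ± 97.4 in WT-Air lungs (SD, n = 3 each). Irgm1, a regulator that is also linked to autophagy and to the survival of blood stem cells in mice, measured 11.52, 11.25 and 11.02 in Nfkb1KO-O3 lungs, 10.37, 10.30 and 10.39 in Nfkb1KO-Air lungs, 9.46, 9.50 and 9.74 in WT-O3 lungs and 9.55, 9.50 and 9.31 in WT-Air lungs. Here the 2 WT groups overlapped and both Nfkb1KO groups stood apart from each other and from WT. Irgm2 measured 12.63, 12.31 and 11.93 in Nfkb1KO-O3 lungs, 11.47, 10.97 and 11.18 in Nfkb1KO-Air lungs, 9.75, 9.77 and 10.02 in WT-O3 lungs and 10.24, 10.63 and 10.14 in WT-Air lungs. Its 4 groups fell in the same order as those of Igtp, again without overlap.

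Among the GKS effectors, Ifi47 measured 12.45, 12.24 and 12.01 in Nfkb1KO-O3 lungs, 10.99, 11.25 and 11.12 in Nfkb1KO-Air lungs, 9.97, 10.07 and 10.03 in WT-O3 lungs and 10.74, 10.79 and 10.39 in WT-Air lungs. The groups did not overlap, and Nfkb1KO-Air lay closest to WT-Air. The brighter probe set of Iigp1 (1419043_a_at) measured 12.68, 12.52 and 11.71 in Nfkb1KO-O3 lungs, 11.27, 10.91 and 11.18 in Nfkb1KO-Air lungs, 9.27, 9.66 and 9.74 in WT-O3 lungs and 9.96, 10.09 and 10.22 in WT-Air lungs. Its other probe set (1419042_at) measured 12.04, 11.86 and 11.07 in Nfkb1KO-O3 lungs, 10.16, 10.21 and 10.38 in Nfkb1KO-Air lungs, 8.50, 8.68 and 9.01 in WT-O3 lungs and 9.29, 9.31 and 9.37 in WT-Air lungs. Both probe sets kept the 4 groups apart in 1 order. Gm4951 measured 9.89, 9.58 and 9.10 in Nfkb1KO-O3 lungs, 8.10, 8.45 and 8.65 in Nfkb1KO-Air lungs, 5.20, 3.13 and 6.17 in WT-O3 lungs and 5.95, 5.06 and 6.55 in WT-Air lungs. Its WT groups overlapped, and WT-O3 replicate 2 lay at or below the lower limit of the arrays, a log2 signal of 4.37. In all 7 probe sets, replicate 1 was the highest and replicate 3 the lowest of the Nfkb1KO-O3 lungs.

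**Figure D2:**
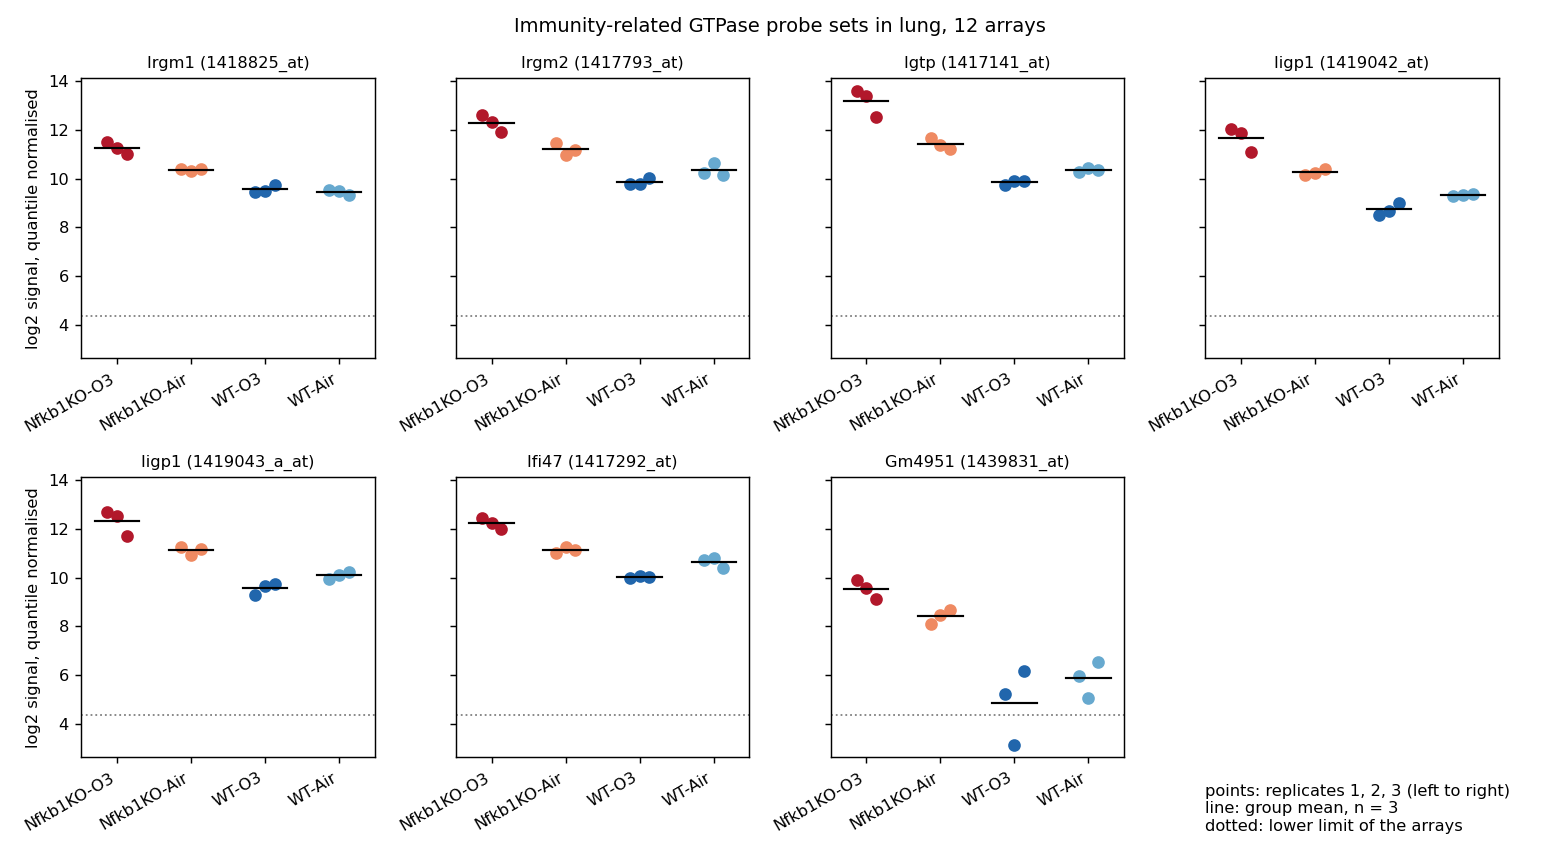
Log2 signal after quantile normalisation (y axis) of the 7 IRG probe sets in the 4 groups (x axis), with a point for each of 3 replicates, a line at the group mean and a dotted line at the lower limit of 4.37. In every panel the Nfkb1KO-O3 lungs sit above the Nfkb1KO-Air lungs and both above the WT lungs, and Gm4951 is near the lower limit in WT lungs.

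After O3, all 6 IRG genes were higher in Nfkb1KO lungs than in WT lungs. Calls were made at a threshold of 0.05 on p-values adjusted over the 17569 genes tested, and here 0.552% of all genes were called higher. Every Nfkb1KO-O3 array lay above every WT-O3 array for all 6 genes, as it did for 9.31% of all genes. The study itself singled out Iigp1 and Ifi47 on these same arrays, so those calls are not independent evidence. The median log2 difference of the 6 genes was 2.59, against 0.00 for all genes. Bulk lung RNA cannot tell more cells that express these genes apart from more IRG RNA per cell.

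Of the regulators, Igtp was 10.04-fold higher (log2 3.33 ± 0.22, adjusted p = 1.4e-05), Irgm2 was 5.42-fold higher (log2 2.44 ± 0.18, adjusted p = 2e-05) and Irgm1 was 3.24-fold higher (log2 1.70 ± 0.13, adjusted p = 2e-05). Of the effectors, Iigp1 was 6.72-fold higher (log2 2.75 ± 0.21, adjusted p = 2.3e-05) and Ifi47 was 4.63-fold higher (log2 2.21 ± 0.13, adjusted p = 7.1e-06). Ifi47 had the smallest p of all genes in this comparison, Igtp was second, and 5 of the 6 IRG genes stood within the first 9. In the fit over 42559 probe sets the second Iigp1 probe set was 7.60-fold higher (log2 2.93 ± 0.21, adjusted p = 1.7e-05). With the WT-O3 value under the lower limit raised to that limit, the increase of Gm4951 came to 19.4-fold by its group means (fitted log2 4.69 ± 0.61, adjusted p = 0.0021).

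In air all 6 differences between Nfkb1KO and WT lungs were positive, but 1 of the 6 passed the test, where 0.256% of all genes were called higher. This was Irgm1 at 1.87-fold (log2 0.90 ± 0.13, adjusted p = 0.0098). The call was lost without Nfkb1KO-Air replicate 3 (adjusted p = 0.054) and without Nfkb1KO-Air replicate 1 and WT-Air replicate 3 together (adjusted p = 0.083) or without the 3 arrays high in muscle transcripts (adjusted p = 0.082). The other differences were log2 1.08 ± 0.22 for Igtp (adjusted p = 0.065), 0.87 ± 0.18 for Irgm2 (adjusted p = 0.074), 1.03 ± 0.21 for Iigp1 (adjusted p = 0.072), 0.48 ± 0.13 for Ifi47 (adjusted p = 0.17) and 2.55 ± 0.61 for Gm4951 (adjusted p = 0.13). None of these 5 passed the threshold. For all 6 genes every Nfkb1KO-Air array lay above every WT-Air array, as it did for 6.63% of all genes, and the median difference was 0.97, against -0.01 for all genes.

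The estimated O3 difference was positive in Nfkb1KO lungs for all 6 genes and negative in WT lungs for 5 of them, and Ifi47 passed the test in both genotypes. In Nfkb1KO lungs 5 of the 6 were called higher after O3, where 3.35% of all genes were. Igtp rose 3.34-fold (log2 1.74 ± 0.22, adjusted p = 0.0013), Irgm1 1.87-fold (log2 0.91 ± 0.13, adjusted p = 0.0027) and Irgm2 2.12-fold (log2 1.08 ± 0.18, adjusted p = 0.0059). Iigp1 rose 2.27-fold (log2 1.19 ± 0.21, adjusted p = 0.0078) and Ifi47 rose 2.17-fold (log2 1.12 ± 0.13, adjusted p = 0.001). Gm4951 differed by log2 1.13 ± 0.61 and was not called (adjusted p = 0.31). All 6 genes had every Nfkb1KO-O3 array above every Nfkb1KO-Air array, as did 13.1% of all genes.

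In WT lungs 1 of the 6 was called lower after O3, where 2.24% of all genes were. Ifi47 fell by 0.62 ± 0.13 on the log2 scale (adjusted p = 0.017), a call lost without WT-Air replicate 1 or without any 1 of the 3 WT-O3 replicates (adjusted p 0.056 to 0.062). Igtp differed by -0.51 ± 0.22 (adjusted p = 0.21), Irgm2 by -0.49 ± 0.18 (adjusted p = 0.16) and Iigp1 by -0.53 ± 0.21 (adjusted p = 0.18). Gm4951, with WT-O3 replicate 2 under the lower limit, was not called (fitted log2 -1.02 ± 0.61, adjusted p = 0.4), with an interval of -2.34 to 0.30. With that array raised to the limit, the group means of Gm4951 differed 1.52-fold, with WT-O3 the lower. The fitted value was -0.17 without that array and -1.69 without WT-O3 replicate 3, so a decrease was not established. Irgm1 differed by 0.12 ± 0.13 (adjusted p = 0.68), with an interval of -0.16 to 0.39. For 4 of the 6 genes, Igtp, Irgm2, Ifi47 and Iigp1, every WT-O3 array lay below every WT-Air array, as did 14.1% of all genes.

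**Figure D3:**
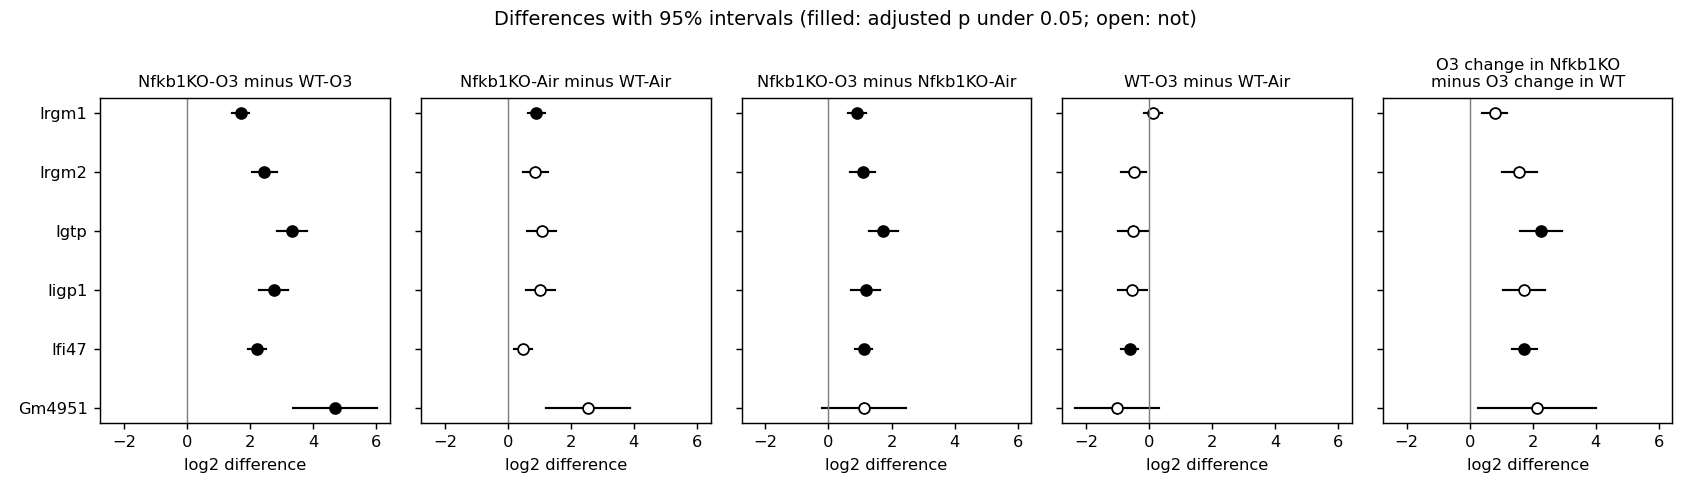
Log2 differences (x axis) of the 6 IRG genes in the 5 comparisons, with 95% intervals from the fit; filled points passed an adjusted p of 0.05 and open points did not. All 6 genes are filled and above 0 after O3 between genotypes, and in WT lungs the O3 differences lie below 0 except for Irgm1 at 0.12.

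The difference between the O3 changes of the 2 genotypes was tested as the genotype by O3 interaction, which called 6 genes in all, 0.0342% of those tested, all of them higher. Ifi47 had the smallest p (log2 1.73 ± 0.18, adjusted p = 0.007) and Igtp was the fourth (log2 2.25 ± 0.30, adjusted p = 0.029). The other 4 were the guanylate-binding proteins Gbp2, Gbp6 and Gbp7 and Cd274, which encodes PD-L1. Of these, Gbp2 and Cd274 were picked for naming once their values were known. The remaining IRG genes had positive values that did not pass: 0.79 ± 0.18 for Irgm1 (adjusted p = 0.44), 1.57 ± 0.26 for Irgm2 (adjusted p = 0.073), 1.72 ± 0.30 for Iigp1 (adjusted p = 0.11) and 2.14 ± 0.86 for Gm4951 (adjusted p = 0.81). The Ifi47 call held without each array in turn, whereas that of Igtp was lost without any 1 of 10 of the 12 arrays (adjusted p 0.052 to 0.12). It held without WT-Air replicate 1 and without Nfkb1KO-O3 replicate 3. With the spread moderated without a trend, limma called 0 genes here, and 1065 genes had an unadjusted p under 0.05 in the fit with a trend.

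The levels of the 6 IRG genes were correlated across the arrays. The Pearson correlation of their log2 levels over the 12 arrays was between 0.866 and 0.989 for the 15 pairs (median 0.962), where the arrays share group differences. The 10 genes most like the mean of the 6 centred IRG levels, over the same 12 arrays, were Tap1 (r = 0.981), Nlrc5 (0.975), Gbp7 (0.972), Fcgr4 (0.966), Gbp3 (0.959), Psmb8 (0.954), Gbp6 (0.954), Fcgr3 (0.936), Psmb9 (0.934) and Parp9 (0.930). Tap1 carries peptides into the endoplasmic reticulum for MHC class I, Psmb8 and Psmb9 are immunoproteasome subunits, and Nlrc5 is the transactivator of MHC class I genes. Fcgr3 and Fcgr4 are receptors for IgG. The study named several of these antigen presentation genes on the same arrays, and the correlations are a description with no test.

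Among the other interferon-gamma responsive GTPases, the guanylate-binding proteins work with the IRGs on vacuoles. After O3, 5 of the 6 that were tested were called higher in Nfkb1KO lungs, where 0.552% of all genes were. All 6 differences were positive, with a median log2 difference of 2.51. Gbp6 was 10.6-fold higher (log2 3.41 ± 0.27, adjusted p = 2.3e-05), Gbp3 was 7.59-fold higher (log2 2.93 ± 0.20, adjusted p = 1.9e-05) and Gbp7 was 4.26-fold higher (log2 2.09 ± 0.15, adjusted p = 2e-05). With O3, 4 of the 6 were called higher in Nfkb1KO lungs, where 3.35% of all genes were, and all 6 were positive. In WT lungs 4 of the 6 were called lower, where 2.24% of all genes were, and 0 were positive. The 3 other IRG family genes tested, of 13 listed, had no call in any comparison. One of them, Gm12185, differed by log2 1.60 ± 0.38 after O3 between genotypes (adjusted p = 0.095), and Irgq by 0.09 ± 0.12 (adjusted p = 0.89).

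Of the genes for interferon-gamma and its receptor, 0 of 3 were called in any comparison. Ifng, the ligand, had log2 signals of 5.61, 5.35 and 4.59 in Nfkb1KO-O3 lungs, 4.92, 4.89 and 5.25 in Nfkb1KO-Air lungs, 2.91, 3.29 and 1.61 in WT-O3 lungs and 3.74, 4.37 and 4.75 in WT-Air lungs. All 3 WT-O3 values were under the lower limit, and the fitted genotype difference after O3 was log2 2.58 ± 0.58 and was not called (adjusted p = 0.072). With those values raised to the limit, the group means differed 1.76-fold. The receptor subunit Ifngr1 differed by 0.12 ± 0.13 (adjusted p = 0.85) and the subunit Ifngr2, named once its value was known, by -0.53 ± 0.21 (adjusted p = 0.39). Of 7 tested genes of interferon-gamma signal transduction, 1 was called in the genotype comparison after O3, namely Nlrc5 at 5.02-fold (log2 2.33 ± 0.24, adjusted p = 0.00032). Of the 11 tested genes for cytokines and factors that induce interferon-gamma, 3 were called higher after O3 in Nfkb1KO lungs relative to WT lungs. These were Eomes (3.50-fold, adjusted p = 0.016) and Tbx21 (3.09-fold, adjusted p = 0.017), lymphocyte transcription factors, and Il18 (1.77-fold, adjusted p = 0.021).

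Of 13 tested genes of the type I interferon system, 2 were called in each genotype comparison, both higher in Nfkb1KO lungs. Irf7, which amplifies type I interferon production, was 3.65-fold higher in air (log2 1.87 ± 0.17, adjusted p = 0.00037) and 2.77-fold higher after O3 (log2 1.47 ± 0.17, adjusted p = 0.00075), and it fell by 0.92 ± 0.17 with O3 in Nfkb1KO lungs (adjusted p = 0.008). Irf9, the DNA-binding part of ISGF3, was 1.80-fold higher in air (adjusted p = 0.021) and 1.79-fold higher after O3 (adjusted p = 0.011). Usp18, a brake on the type I receptor, was 2.03-fold higher in air (adjusted p = 0.0028) and 2.04-fold higher after O3 (adjusted p = 9e-04). The brake Socs3 rose with O3 in both Nfkb1KO lungs (2.66-fold, adjusted p = 0.00093) and WT lungs (2.67-fold, adjusted p = 0.00049). Of the 15 tested genes of Atg8 conjugation and vacuole targeting, the machinery that marks vacuole membranes for the IRG effectors, 0 were called in either genotype comparison. Atg3 rose with O3 in Nfkb1KO lungs (1.30-fold, adjusted p = 0.03) and Map1lc3a fell with O3 in WT lungs by 0.31 ± 0.08 on the log2 scale (adjusted p = 0.034).

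**Figure D4:**
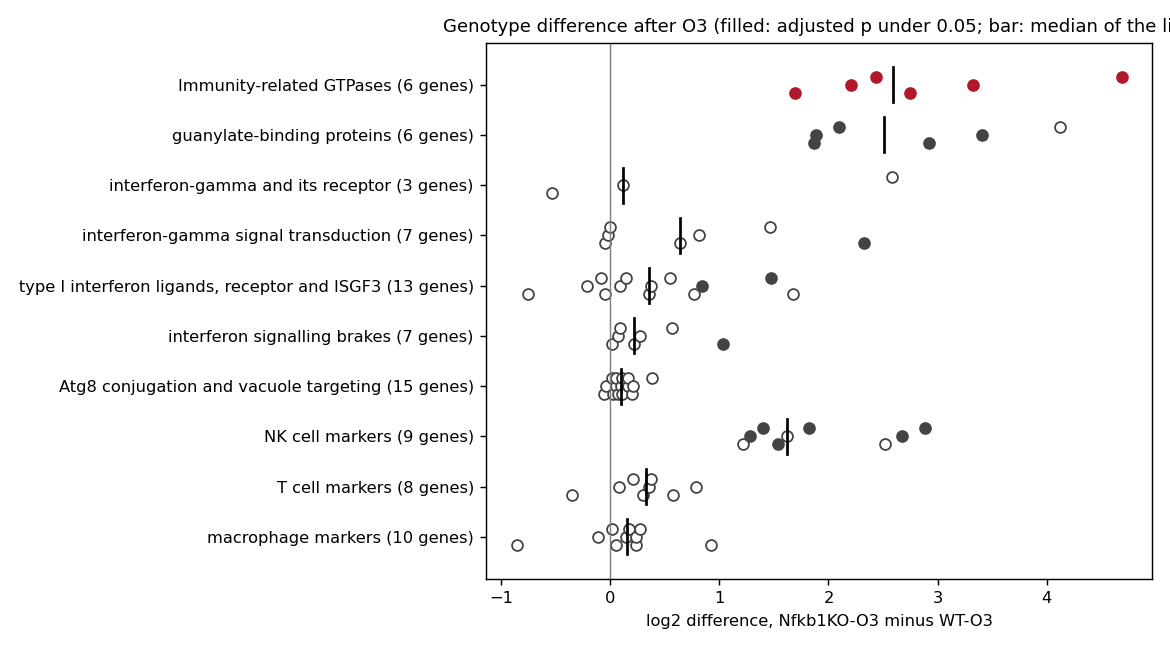
Log2 difference of Nfkb1KO-O3 over WT-O3 lungs (x axis) for the 6 IRG genes (red) and the tested members of 9 other gene lists (y axis), with a point per gene, filled where the adjusted p was under 0.05, and a bar at each list's median. The IRG median is 2.59 and that of the guanylate-binding proteins 2.51, while the Atg8 list lies near 0.

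Markers of some immune cells moved with genotype beside the IRG genes. Of the 9 tested NK cell markers, 6 were called higher after O3 in Nfkb1KO lungs relative to WT lungs, among them the granzymes Gzma (7.38-fold, adjusted p = 2e-05) and Gzmb (6.39-fold, adjusted p = 2.3e-05) and the granule protein Nkg7 (3.53-fold, adjusted p = 0.0015). The log2 of their summed signals was 11.82 to 12.48 in Nfkb1KO-O3, 11.99 to 12.32 in Nfkb1KO-Air, 9.689 to 10.17 in WT-O3 and 10.81 to 11.05 in WT-Air lungs, and none was at or below the lower limit in all arrays of a group. With O3 in Nfkb1KO lungs, where 5 of the 6 IRG genes were called higher, 0 of the 9 NK markers were called, with a median log2 difference of 0.06. With O3 in WT lungs 3 of the 9 were called lower and none had a positive difference (median -0.83). Their 9 interaction values were all positive (median 0.80), with 0 called. Of the 8 tested T cell markers 0 were called in any comparison, and the macrophage markers had a summed log2 signal of 14.83 to 15.01 across all 12 arrays. Of these 10 macrophage markers 2 were called higher with O3 in Nfkb1KO lungs, the lysosomal glycoprotein Cd68 (1.59-fold, adjusted p = 0.045) and the scavenger receptor Marco (3.82-fold, adjusted p = 0.001). Marco was also called higher with O3 in WT lungs and lower in Nfkb1KO-Air relative to WT-Air lungs. Of the 8 tested neutrophil markers 2 were called higher in Nfkb1KO lungs after O3 and 1 in air. Their summed signal had a log2 of 11.57 to 12.16 in Nfkb1KO-O3 and 10.59 to 10.79 in WT-O3 lungs. It was 11.69 to 11.99 in Nfkb1KO-Air and 10.89 to 11.26 in WT-Air lungs. The O3 comparison in Nfkb1KO lungs called 0 of the 8, with a median log2 difference of 0.04. With O3 in Nfkb1KO lungs 3 of 9 airway epithelial markers (Foxj1, Ccdc39 and Dynlrb2) and 3 of 8 endothelial markers were called lower. In WT lungs 1 marker of each of these 2 lists was called lower with O3. The part of any of these cells in the IRG results was not tested.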

How the data were processed

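Biotin-labelled RNA from 12 left lungs was hybridised to 1 array per mouse. The deposited values were linear signal intensities that the authors computed with MAS5 in Affymetrix Expression Console and scaled to a trimmed mean of 500 per array, with program versions not given. Detection calls were not used, and precision is limited by the small number of arrays.

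After a floor of 1, log2 signals were quantile normalised without the 64 control probe sets. Probe sets above the 20th percentile in at least 1 array were kept (42559), and the brightest probe set with 1 gene symbol stood for each gene (17569 genes). limma 3.58.1 in R 4.3.3 was fitted with 1 mean per group and a trended moderation of the spread (12.6 degrees of freedom) and with Benjamini-Hochberg adjustment over all genes tested. Errors of differences are standard errors. The smallest two-sided exact p of 3 against 3 arrays is 0.1. Probe sets were fitted likewise in a second model. The procedure was also run on simulated data, but the outcome is not given here and no conclusion is drawn from it.

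The members, lists and tests were chosen with earlier results of these data known. Named genes were the 6 members, up to 3 called genes with the smallest p per list, up to 2 genes of lists without calls, and the 10 genes most like the members. Alternatives covered scaling, floor, filter, probe set choice, moderation, array weights, the replicate block and left-out arrays.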

Additional observations from a re-analysis of the deposited data

Results flagged for a closer look

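The O3 change of 2 IRG genes differed between genotypes by the interaction test. For Igtp the O3 change in Nfkb1KO lungs minus that in WT lungs was 2.25 on the log2 scale (adjusted p = 0.029), and for Ifi47 it was 1.73 (adjusted p = 0.007), where 0.0342% of all genes were called. The Igtp call was lost without any 1 of 10 of the 12 arrays (adjusted p 0.052 to 0.12), and with the spread moderated without a trend 0 genes were called. All 3 Nfkb1KO-O3 arrays lay above all 3 Nfkb1KO-Air arrays for both genes, as for 13.1% of all genes, and all 3 WT-O3 arrays lay below all 3 WT-Air arrays, as for 14.1% of all genes.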

How the results depend on the processing

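Each of the 6 genes was recomputed under every alternative in each comparison, 834 values in all, and all 834 kept their direction. Of these, 793 stayed on the same side of the threshold, 26 lost a call and 15 gained one. All 6 genes stayed called in the genotype comparison after O3 in every alternative limma fit. By the methods' t-test, which the study used between genotypes in air, 6 IRG genes were under the unadjusted threshold and 0 after Benjamini-Hochberg adjustment. The same t-test applied to the O3 groups, where the study used another test, gave 6 unadjusted and 0 adjusted. In the limma fit, which is another test, 11.3% of all genes in air and 9.43% after O3 had an unadjusted p under 0.05 between genotypes. The share of all genes by the t-test itself is not given here, so its unadjusted counts have no background. The gene counts that follow are of the 6 IRG genes. The number of all genes called is given beside them for median centring and the pseudocount only, so the other counts have no background. With arrays centred on their medians, 0 were called in air, 0 with O3 in WT and 4 in the interaction. The median of all genes then moved to -0.20 in air, 0.02 with O3 in WT and 0.25 in the interaction. It was 0.25 with O3 in Nfkb1KO, and -0.13 there without any normalisation. Without a trend, 0 were called in air, 0 with O3 in WT and 0 in the interaction, and 11 probe sets were called over the 5 comparisons, against 17 with a trend. A pseudocount of 16 gave 2 in air, where 64 of all genes were called. Using only the groups compared gave 3 in air and 2 with O3 in WT. Leaving out each array in turn gave 0 to 3 calls in air, 0 to 2 with O3 in WT and 1 to 4 in the interaction. Leaving out Nfkb1KO-Air replicate 1 and WT-Air replicate 3 together, an alternative chosen after seeing the data, gave 0 calls in air and 1 in the interaction. Leaving out the 3 arrays high in muscle transcripts, also chosen then, gave 0 calls in air, 0 with O3 in WT and 1 in the interaction, with the lone WT-Air array assumed to vary like the other groups. Keeping the control probe sets, chosen likewise, changed no count. The replicate block gave 1 call in air, 6 after O3, 5 with O3 in Nfkb1KO, 1 with O3 in WT, 2 in the interaction and 16 probe set calls, so that it changed no call of a gene. Replicate numbers did not pair the samples (deviations correlated at -0.17 to 0.11 for the same number and -0.14 to 0.19 for different numbers). The causes of these changes were not tested.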

Other observations

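Within the Nfkb1KO-O3 group, the mean of the 6 centred IRG levels was 1.93 in replicate 1, 1.68 in replicate 2 and 1.18 in replicate 3. The summed guanylate-binding protein signal had the same order (log2 14.79, 14.42 and 14.12). So did the Ifng signals of these lungs given above, which lay not far above the lower limit. The summed NK marker signal of the same lungs was 12.25, 11.82 and 12.48, so the lung lowest in IRG levels was the highest in NK markers. The summed neutrophil marker signal was 11.89, 12.16 and 11.57. With 3 lungs, these orders carry no test.

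Marco, a scavenger receptor of alveolar macrophages, fell by 1.76 ± 0.22 on the log2 scale in Nfkb1KO-Air relative to WT-Air lungs (adjusted p = 0.0046), where Irgm1 was the 1 IRG gene called, and higher. With O3 it rose 3.82-fold in Nfkb1KO lungs (adjusted p = 0.001) and 2.05-fold in WT lungs (adjusted p = 0.02).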
